A study of Mus musculus with 6 samples.

Results

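The 10 genes described here serve glucose entry and upper glycolysis, and were read in mouse embryonic stem (ES) cells and extraembryonic endoderm (XEN) cells. They are the glucose transporters Slc2a1 and Slc2a3, the hexokinases Hk1 and Hk2, the phosphofructokinases Pfkl, Pfkm and Pfkp, and the bifunctional regulators Pfkfb2, Pfkfb3 and Pfkfb4. They were chosen by symbol, and all 10 were found among 17710 genes listed in any of the 6 libraries. ES cells stand for the pluripotent epiblast and XEN cells for the lineage that lines the yolk sac. The series compares the metabolism of these 2 cell types. The ES libraries came from strain 129/Ola cells kept feeder-free on gelatin in N2B27-2iLIF, a serum-free medium with inhibitors and LIF. The XEN libraries came from strain ICR cells kept in RPMI1640 with FBS, Glut and BME, as the labels write them. Each group held 3 libraries of total RNA, A, B and C. The labels do not say whether these came from separate cultures, and p-values therefore cover only library-to-library variation, possibly of technical origin. Cell type goes with strain and with medium, so that the part of each in a difference cannot be told apart. In bulk RNA, fewer cells with a transcript and less of it per cell cannot be told apart either.

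Glucose enters most cells through facilitative transporters of the SLC2 family, and hexokinases trap it as glucose 6-phosphate. Phosphofructokinase then commits the sugar to glycolysis, and its strongest activator, fructose 2,6-bisphosphate, is made and removed by the PFKFB enzymes. Each step is served by several isozymes from separate genes, which differ in affinity, regulation and tissue distribution.

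The libraries held 20675311 to 22375875 expected counts, so that 3 counts in a library came to 0.130 to 0.149 CPM, which are counts scaled to the library total times its TMM composition factor. The 10 genes together took 0.288% to 0.305% of the counts of an ES library and 0.480% to 0.532% of a XEN library. All 5 ES markers read (Pou5f1, Nanog, Sox2, Esrrb and Zfp42) lay above 1 FPKM in ES libraries, where they summed to 2129 to 2169 FPKM, against 0.620 to 0.900 in XEN libraries. The 5 XEN markers (Gata4, Gata6, Sox17, Sox7 and Pdgfra) summed to 656.8 to 673 FPKM in XEN libraries and to 1.06 to 1.14 in ES libraries. The 6 fibroblast markers, which feeder cells would carry, summed to 1.69 to 2.01 FPKM in ES and 0.170 to 0.210 in XEN libraries. Thy1 in ES libraries was the only one of them above 1 FPKM, and Col3a1 and Lum were at 0 in every ES library. The 5 trophoblast markers summed to 28.2 to 29.6 FPKM in ES libraries, mostly Tfap2c, and to 2.07 to 2.60 in XEN libraries, mostly Eomes, with Hand1 at 0 in all libraries. Their part in the results was not tested. Between the groups, 88.7% of the 13581 genes tested were called by the edgeR quasi-likelihood test at an adjusted p below 0.05, 42.0% as higher in XEN cells and 46.7% as lower. The groups did not overlap in CPM for 89.4% of them, and 42.7% passed a test against a change of 2-fold.

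Of the 10 genes, 9 were called, 5 as higher and 4 as lower in XEN cells, which is near the share over all genes. Pfkfb4 was the gene not called. The groups did not overlap for 9 genes, Pfkfb3 being the exception, and 4 genes passed the test against 2-fold. The median log2 fold change of the 10 genes was 0.03, against -0.07 over all genes tested. Their median change in either direction was 0.61 on the log2 scale, against 0.92 over all genes tested.

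**Figure D1:**
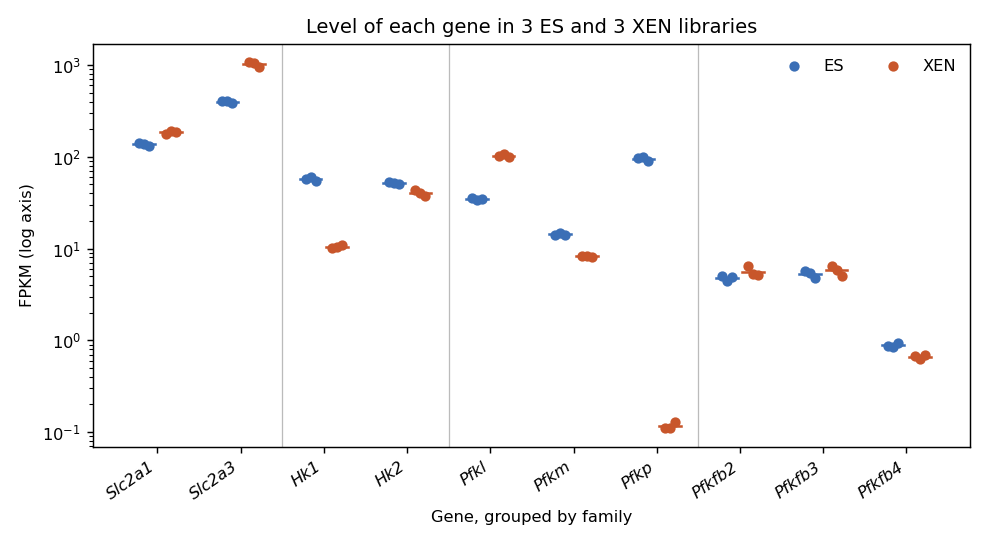
FPKM on a log axis (fragments scaled by transcript length and library total) of the 10 genes, in 3 ES (blue) and 3 XEN (orange) libraries; points are libraries and short lines their means. Pfkp lies at 90.21 to 98.76 FPKM in ES libraries and 0.11 to 0.13 in XEN libraries, while the Pfkfb genes lie close together.

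Slc2a3, which encodes the high-affinity transporter GLUT3, was the most abundant of the 10 genes in both cell types. Its level was 404, 402 and 384 FPKM in ES libraries A to C, and 1071, 1048 and 945 FPKM in XEN libraries. The groups did not overlap, and all 3 XEN libraries lay above every ES library. The FPKM of Slc2a3 ranked between 169 and 186 among the genes of an ES library, and between 51 and 81 in a XEN library. It rose from 1467 ± 38.1 to 4138 ± 270.3 CPM (SD, n = 3), a log2 fold change of 1.496 ± 0.06 (SE; edgeR adjusted p = 1.84e-17), and passed the test against 2-fold.

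Slc2a1 encodes GLUT1, the transporter of basal glucose uptake in many cells. It was at 139.98, 138 and 131 FPKM in ES libraries and at 177, 190.28 and 185 FPKM in XEN libraries. The ranges were apart but close, and the gene rose by a log2 fold change of 0.56 ± 0.04 (edgeR adjusted p = 2.22e-11), from 322 ± 10.1 to 476 ± 15.5 CPM. Slc2a1 did not pass the test against 2-fold.

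The transporter pair shifted toward Slc2a3. On FPKM, which allows genes of unlike length to be compared, the part of Slc2a3 in the sum of both genes went from 74.4% ± 0.119 in ES to 84.7% ± 1.10 in XEN cells (SD, n = 3). The difference of 10.3 percentage points had an exact two-sided permutation p = 0.1, the smallest that 3 against 3 libraries allow, which no share here can pass at 0.05. The ratio of Slc2a3 to Slc2a1 was 2.89, 2.91 and 2.92 in ES libraries and 6.05, 5.51 and 5.11 in XEN libraries. Summed over both genes, transporter counts rose from 1789 ± 48.2 to 4613 ± 264.5 CPM, a log2 fold change of 1.37 ± 0.05 (edgeR adjusted p = 2.71e-17).

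Other SLC2 genes were far below these 2. Among 12 SLC2 genes read, Slc2a1 made up 24.99% of the summed FPKM and Slc2a3 72.6% in ES libraries. In XEN libraries these shares were 15.2% and 84.2%. Slc2a8, an intracellular transporter, was the next highest at 9.83 ± 0.578 FPKM in ES and 6.18 ± 0.211 in XEN libraries. It fell by 0.54 on the log2 scale (edgeR adjusted p = 1.14e-06). Slc2a4, the insulin-responsive transporter GLUT4, fell from 3.87 ± 0.341 to 2.03 ± 0.0949 CPM (edgeR adjusted p = 2.09e-05), and Slc2a5, the fructose transporter, from 1.21 ± 0.398 to 0.507 ± 0.105 CPM (edgeR adjusted p = 0.00123). Slc2a7 had 32, 38 and 38 counts in ES libraries and 0 in each XEN library, which is at least 33.4-fold lower against a floor of 3 counts over the group. Slc2a2, the low-affinity transporter of liver and islets, had too few counts for the test, with 0 in each ES library and 10, 11 and 9 in XEN libraries. It was at least 10.7-fold higher there against the same floor, at a level of 0.170 to 0.200 FPKM. Floors cover counting error only.

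Hk1, the broadly expressed hexokinase that binds the outer mitochondrial membrane, fell most among the hexokinases. Its level was 57.4, 60.23 and 54.5 FPKM in ES libraries and 10.1, 10.33 and 10.87 FPKM in XEN libraries. The groups lay far apart relative to their spread. Counts went from 222 ± 10.7 to 44.3 ± 1.67 CPM, a log2 fold change of -2.33 ± 0.05 (edgeR adjusted p = 6.01e-21), or 5.02-fold lower in XEN cells, and Hk1 passed the test against 2-fold.

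Hk2, the inducible hexokinase that also binds mitochondria, fell by less. It was at 53.1, 52.44 and 50.33 FPKM in ES libraries and at 43.79, 40.03 and 37.27 FPKM in XEN libraries. The XEN libraries were all lower, and the gene fell by 0.23 on the log2 scale (SE 0.07; edgeR adjusted p = 0.000386), from 269 ± 6.85 to 229 ± 19.0 CPM. With upper-quartile scaling the fall was 0.38 on the log2 scale, over 1.5 times as large, so that its size depends on the scaling.

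With Hk1 and Hk2 alone, the family turned from an even mix to mostly Hk2. Hk2 made up 47.5% ± 0.860 of the 2 genes on FPKM in ES libraries and 79.4% ± 1.92 in XEN libraries (exact permutation p = 0.1). Their summed counts fell from 491 ± 16.3 to 273.5 ± 17.5 CPM, by 0.85 on the log2 scale (edgeR adjusted p = 2.83e-13).

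A further hexokinase gene, Hkdc1, changes that balance. Hkdc1 encodes hexokinase domain-containing protein 1 and lies next to Hk1 among the protein-coding genes of chromosome 10 in the RefSeq annotation of GRCm38.p6. It was at 0.31, 0.22 and 0.35 FPKM in ES libraries, with 22, 16 and 26 counts, and at 38.84, 39.89 and 40.35 FPKM in XEN libraries. The rise was from 0.947 ± 0.224 to 141 ± 2.52 CPM, a log2 fold change of 7.21 ± 0.19 (edgeR adjusted p = 5.41e-25), or 148-fold. In XEN libraries Hkdc1 stood close to Hk2, the ratio of Hk2 to Hkdc1 being 1.13, 1.0035 and 0.924 on FPKM.

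With Hkdc1 counted, the XEN sum of the 3 genes was 44.6% ± 2.56 Hk2, 43.9% ± 1.88 Hkdc1 and 11.5% ± 0.701 Hk1 by FPKM. The ES sum was 52.3% ± 0.892 Hk1, 47.4% ± 0.828 Hk2 and 0.269% ± 0.0696 Hkdc1. On this wider family the share of Hk2 differed by -2.84 percentage points in XEN against ES libraries (exact permutation p = 0.2), where it was 31.9 points higher over Hk1 and Hk2 alone. The summed level went from 109.6 ± 3.99 to 90.49 ± 2.13 FPKM, against 109 ± 4.05 and 50.8 ± 2.90 FPKM for Hk1 and Hk2. In edgeR the wider sum fell by 0.25 on the log2 scale (adjusted p = 7.57e-06), a smaller fall than that of Hk1 and Hk2 alone.

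**Figure D2:**
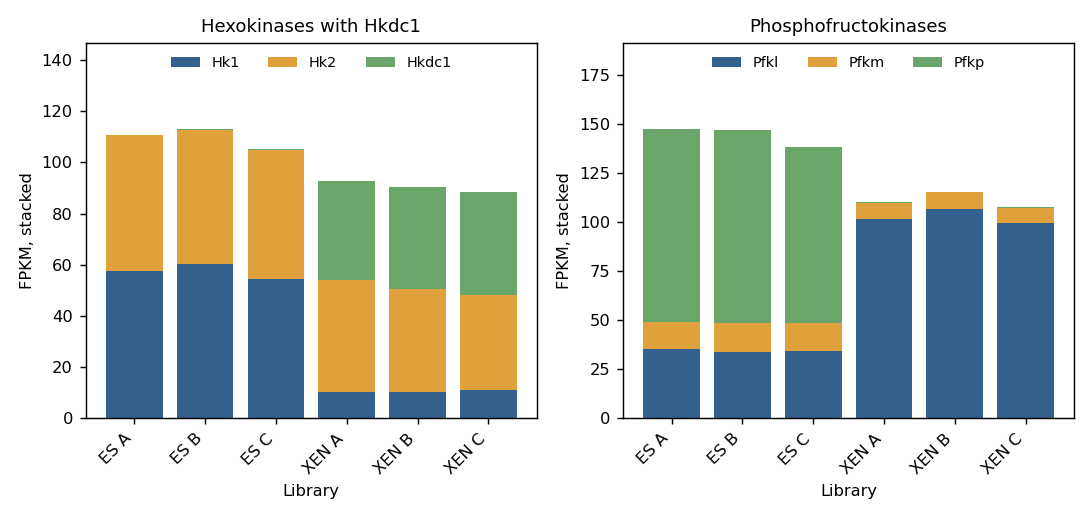
Stacked FPKM per library of 3 hexokinase genes (left) and 3 phosphofructokinase genes (right), with a linear axis from 0. In XEN libraries Hkdc1 reaches 38.84 to 40.35 FPKM beside a like level of Hk2, and Pfkl reaches 99.48 to 107.06. ES libraries hold mainly Hk1 and Hk2 on the left, and mainly Pfkp with less Pfkl on the right.

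Hk3 was listed in no library. Adpgk, which phosphorylates glucose with ADP, fell from 80.5 ± 1.48 to 66.2 ± 2.997 CPM (edgeR adjusted p = 5.88e-06). Among the protein-coding neighbours of Hk1 and Hkdc1, Supv3l1, which follows Hkdc1, was at 32.4 ± 0.499 FPKM in ES and 22.5 ± 0.651 in XEN libraries. The next, Vps26a, was at 84.9 ± 3.19 and 91.4 ± 1.31 FPKM. Srgn, which follows it, was at 0.897 ± 0.181 FPKM in ES and 329 ± 21.1 in XEN libraries, high in XEN cells as Hkdc1 was. On the Hk1 side, Tacr2 was at 0.0367 FPKM or below in the mean of each group, and Tspan15 was at 4.06 ± 0.248 and 0.0467 ± 0.0451 FPKM.

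The promoter sequences of Pfkp, Pfkl and Hkdc1 are shown because Pfkp had the largest fall and Pfkl the largest rise among the 10 genes, and Hkdc1 the largest rise among the hexokinase genes read. Each is the 250 bases before the annotated start in RefSeq (build GRCm38.p6, 5′ to 3′ on the gene's strand, all 3 on the minus strand), with CG dinucleotides in capitals. The authors' files use mm9, and these positions were not used with them. RefSeq promoters were matched by symbol for 9 of the 10 genes.
Pfkp (chr13:6648772-6649021): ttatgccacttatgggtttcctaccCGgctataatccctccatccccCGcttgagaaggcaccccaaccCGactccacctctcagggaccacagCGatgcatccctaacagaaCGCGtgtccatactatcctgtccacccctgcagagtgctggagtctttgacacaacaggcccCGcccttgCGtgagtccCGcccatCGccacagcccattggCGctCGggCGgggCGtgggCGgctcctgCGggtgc
Pfkl (chr10:78009808-78010057): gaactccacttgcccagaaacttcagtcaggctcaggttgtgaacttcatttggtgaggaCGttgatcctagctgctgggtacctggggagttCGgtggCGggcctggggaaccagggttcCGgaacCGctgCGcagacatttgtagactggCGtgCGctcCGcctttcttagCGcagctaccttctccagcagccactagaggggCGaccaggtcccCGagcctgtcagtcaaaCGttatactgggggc
Hkdc1 (chr10:62422458-62422707): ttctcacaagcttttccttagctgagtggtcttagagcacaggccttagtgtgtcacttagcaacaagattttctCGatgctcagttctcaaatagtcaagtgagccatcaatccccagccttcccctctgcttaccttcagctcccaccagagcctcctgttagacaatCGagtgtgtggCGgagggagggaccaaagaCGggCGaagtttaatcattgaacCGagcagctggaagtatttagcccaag

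The Pfkp window held 16 CG dinucleotides and the Pfkl window 13, more than in 74.6% and 68.5% of 32851 RefSeq windows of the same length. The Hkdc1 window held 6, which is the median of all windows. Of 5 motifs searched on both strands, none of the 3 windows held any. The windows of the other matched members were searched too, and each of those genes held some match in at least 1 window. Hk1, Pfkm, Pfkfb2 and Pfkfb3 had several windows, however, against 1 each for Pfkp, Pfkl and Hkdc1. Hk1, Pfkm and Pfkfb2 each also had a window without a match. The share of all windows without any of the 5 motifs was not computed. The E-box CACGTG occurs in 6.02% of all windows, and its inner part, the HIF core ACGTG, which every E-box match also holds, in 16.6%. The GATA core GATAA occurs in 22.6%, the POU octamer ATGCAAAT in 1.60%, and the TATA motif TATAAA in 12.4%. Methylation and factor binding at these windows were not analysed here.

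The phosphofructokinases exchanged their main isozyme. Pfkp, the platelet-type subunit, was at 98.11, 98.76 and 90.21 FPKM in ES libraries and at 0.11, 0.11 and 0.13 FPKM in XEN libraries, where it had 10.03, 10.04 and 11.04 expected counts. The FPKM of Pfkp ranked between 836 and 936 in ES libraries and between 12307 and 12508 in XEN libraries. It was the gene of the 10 with the largest change, a log2 fold change of -9.49 ± 0.07, or 721-fold lower in XEN cells (edgeR adjusted p = 8.19e-27). That SE covers only the spread between libraries, and the few XEN counts leave the fold less certain than it shows. Pfkp was the only one of the 10 genes with expected counts that are not whole, and the annotation places Pitrm1 and a long noncoding RNA over part of it, whose reads may not be told apart from its own.

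Pfkl, the liver-type subunit, was at 35.16, 34.04 and 34.56 FPKM in ES libraries and at 101.8, 107.06 and 99.48 FPKM in XEN libraries. The level of Pfkl in XEN libraries lay just above that of Pfkp in ES libraries. It rose by a log2 fold change of 1.70 ± 0.03 (edgeR adjusted p = 7.62e-20), the largest rise among the 10 genes, and passed the test against 2-fold.

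Pfkm, the muscle-type subunit, was the least abundant of the 3 in ES libraries, at 14.23, 14.6 and 13.96 FPKM. In XEN libraries it was at 8.3, 8.37 and 8.05 FPKM, below all ES libraries. It fell by 0.66 on the log2 scale (SE 0.02; edgeR adjusted p = 4.65e-10), from 37.8 ± 0.779 to 23.9 ± 0.442 CPM. Of 4 skeletal and heart muscle markers read (Ckm, Myh6, Acta1 and Des), 1 in each group reached 1 FPKM in any library, and they summed to 2.01 to 2.26 FPKM in ES and 1.63 to 1.97 in XEN libraries.

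By FPKM the ES phosphofructokinases were 66.2% ± 1.03 Pfkp, 23.9% ± 0.914 Pfkl and 9.87% ± 0.210 Pfkm. The XEN phosphofructokinases were 92.5% ± 0.160 Pfkl, 7.42% ± 0.152 Pfkm and 0.105% ± 0.0136 Pfkp. Each of the 3 shares had non-overlapping groups and an exact permutation p = 0.1. The ratio of Pfkl to Pfkm went from 2.43 ± 0.0819 to 12.5 ± 0.281. The sum over the 3 genes moved much less than its parts, from 144.5 ± 5.03 to 111 ± 4.02 FPKM and from 518 ± 17.4 to 418 ± 13.7 CPM, a fall of 0.31 on the log2 scale (edgeR adjusted p = 3.24e-07).

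**Figure D3:**
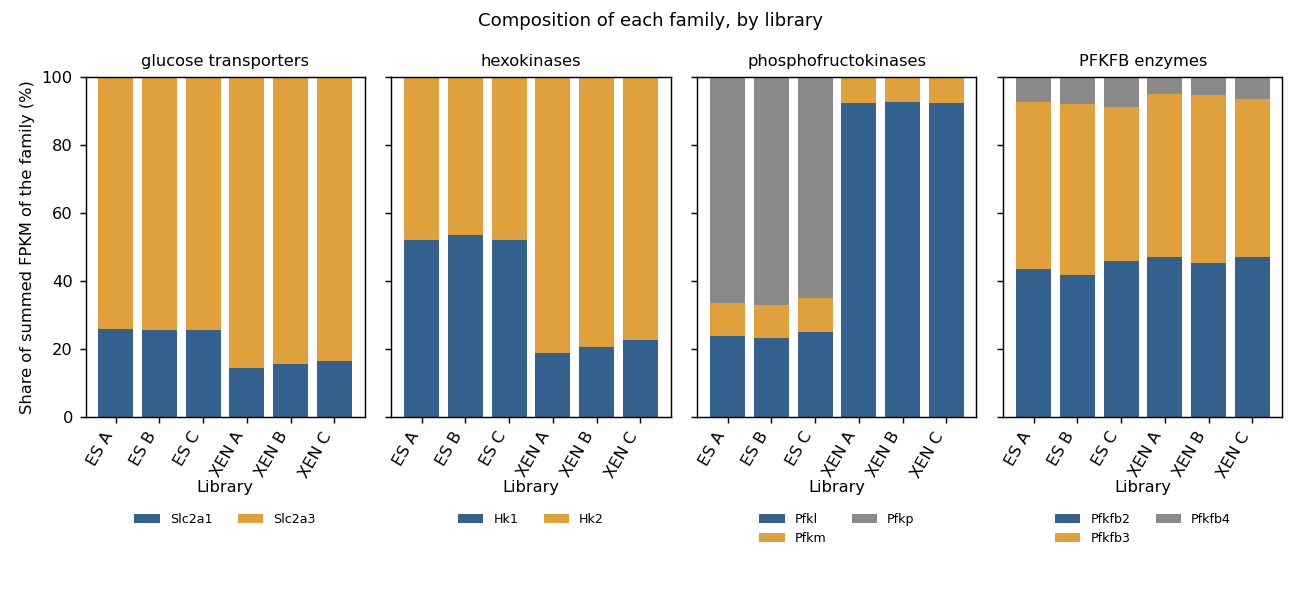
Share (%) of each listed gene in the summed FPKM of its family, 1 bar per library. Pfkl fills 92.4% to 92.7% of the phosphofructokinase bar in XEN libraries, against 23.1% to 24.9% in ES libraries, while the PFKFB bars differ little between the groups.

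The PFKFB genes were lower in level, and none passed the test against 2-fold. These enzymes make and remove fructose 2,6-bisphosphate, PFKFB3 with a strong bias to synthesis. Pfkfb3 was at 5.71, 5.35 and 4.8 FPKM in ES libraries and at 6.51, 5.83 and 5.07 FPKM in XEN libraries, and the groups overlapped in both FPKM and CPM. It was called as higher in XEN cells with a log2 fold change of 0.29 ± 0.13 (edgeR adjusted p = 0.00795), but not with upper-quartile scaling (0.14, adjusted p = 0.143), without a composition factor (0.16, adjusted p = 0.119) or on log2(FPKM + 1) in limma (0.11, adjusted p = 0.242).

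Pfkfb2, the isozyme best known from heart, was at 5.07, 4.42 and 4.87 FPKM in ES libraries and at 6.38, 5.32 and 5.11 FPKM in XEN libraries. Counts rose from 26.8 ± 1.76 to 37.0 ± 3.70 CPM, a log2 fold change of 0.47 ± 0.10 (edgeR adjusted p = 5.98e-06). On log2(FPKM + 0.1) in limma the change was 0.22 and did not pass (adjusted p = 0.0541). With a pseudocount of 1 it was 0.19 and only just passed (adjusted p = 0.0490 in limma). The transcript length behind the FPKM of Pfkfb2 ran from 5767 to 6067 bases in ES and from 6267 to 6593 bases in XEN libraries. FPKM also carries no composition factor, and counts without that factor gave a log2 fold change of 0.34.

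Pfkfb4 was the lowest of the 3, at 0.87, 0.84 and 0.94 FPKM in ES libraries and 0.67, 0.63 and 0.69 FPKM in XEN libraries, with 46 to 68 counts per library. The groups did not overlap, but the log2 fold change of -0.28 ± 0.07 did not pass (edgeR adjusted p = 0.123). It passed with upper-quartile scaling (-0.43, adjusted p = 0.0222), without a composition factor (-0.41, adjusted p = 0.0265) and on log2(FPKM + 1) (-0.18, adjusted p = 0.00508 in limma).

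Of the 3 PFKFB shares, that of Pfkfb4 had groups that did not overlap, at 8.08% ± 0.710 in ES and 5.55% ± 0.724 in XEN libraries (exact permutation p = 0.1). Pfkfb3 made up 48.2% ± 2.68 and 48.0% ± 1.42, with an exact permutation p = 1. Pfkfb2 made up 43.7% ± 2.13 and 46.4% ± 1.08, with an exact permutation p = 0.2. The summed counts of the 3 genes rose from 53.6 ± 3.37 to 68.7 ± 7.07 CPM, a log2 fold change of 0.36 ± 0.10 (edgeR adjusted p = 0.000626). On log2(FPKM + 1) the sum changed by 0.12 and did not pass (adjusted p = 0.144 in limma).

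Pfkfb1, the liver isozyme and no member of the list, was more abundant than the other PFKFB genes by FPKM, at 9.40 ± 0.375 in ES and 7.72 ± 0.618 in XEN libraries. It was not called (log2 fold change -0.16, edgeR adjusted p = 0.0616), but was called as lower in XEN cells with RLE scaling (-0.17, adjusted p = 0.0494), upper-quartile scaling (-0.31, adjusted p = 0.00132) and no composition factor (-0.29, adjusted p = 0.00169). The same held in limma on log2(FPKM + 1) (-0.25, adjusted p = 0.00292) and log2(FPKM + 0.1) (-0.28, adjusted p = 0.00326). In edgeR it also held with only genes averaging 1 CPM or more (-0.18, adjusted p = 0.0428) and without XEN replicate C (-0.22, adjusted p = 0.0223). Tigar, a phosphatase that lowers fructose 2,6-bisphosphate, fell from 113 ± 3.14 to 42.0 ± 2.38 CPM, a log2 fold change of -1.42 ± 0.05 (edgeR adjusted p = 4.69e-17). The ratio of Tigar to Pfkfb3 by FPKM went from 6.31 ± 0.654 to 1.96 ± 0.136, without overlap between the groups (exact permutation p = 0.1).

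**Figure D4:**
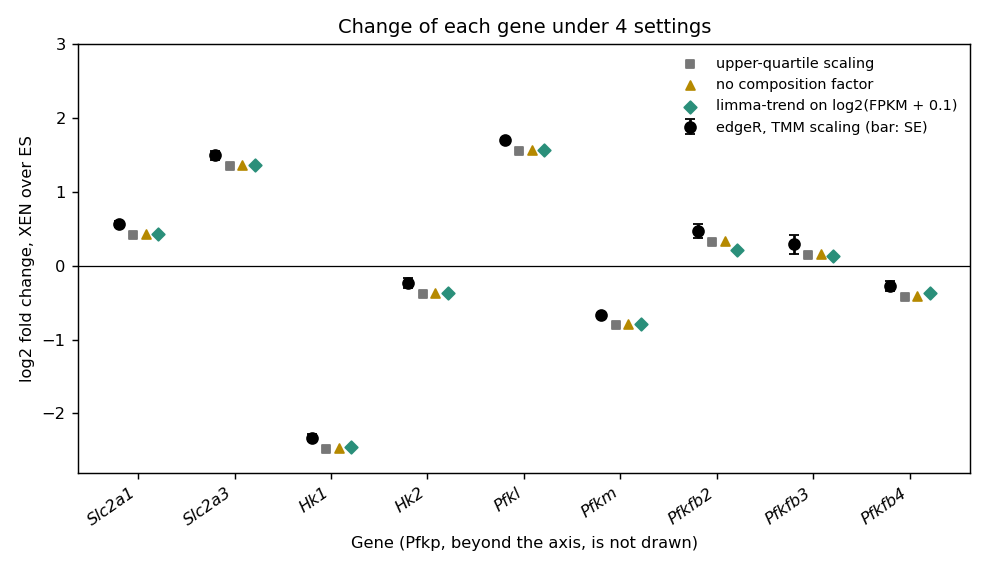
Log2 fold change of XEN over ES for 9 of the 10 genes. Circles are the edgeR fit, with bars for the SE computed from log2 CPM. Squares are upper-quartile scaling, triangles no composition factor and diamonds limma on log2(FPKM + 0.1). Every gene keeps its sign under the 4 settings drawn, and these 3 alternatives lie below the circles for all 9 genes; on log2(FPKM + 1), not drawn, Pfkfb4 lies above its circle.

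The order of the genes by level differed between the cell types mainly through Pfkp, Pfkl and Hk1. In ES libraries the order by mean FPKM was Slc2a3, Slc2a1, Pfkp, Hk1, Hk2, Pfkl, Pfkm, Pfkfb3, Pfkfb2 and Pfkfb4. In XEN libraries it was Slc2a3, Slc2a1, Pfkl, Hk2, Hk1, Pfkm, Pfkfb3, Pfkfb2, Pfkfb4 and Pfkp. Pfkfb3 and Pfkfb2 were the neighbours whose libraries overlapped in both cell types. All other neighbours in each order were apart in all 3 libraries.

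Genes with the level most like that of a member were taken by the Euclidean distance of log2(FPKM + 0.1) over the 6 libraries. Nearest to Pfkl were Slc9a3r1 (distance 0.101), at 34.0 and 101 FPKM in ES and XEN cells, Hmgb3 (0.134) and Snx6 (0.231). Nearest to Pfkp were Zfp600 (distance 0.520), at 84.9 and 0.0867 FPKM, Zfp979 (0.609) and Gpa33 (0.632). With 2 groups of libraries, such a distance reflects little beyond the mean level in each cell type.

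Other genes of glucose use moved in both directions, in lists written with earlier results of these data known. Of 16 genes of later glycolysis, 14 were tested, of which 5 rose, 7 fell and 2 did not pass, with 5 and 9 under upper-quartile scaling. The median log2 fold change was -0.23, against -0.07 over all genes tested, of which 42.0% rose and 46.7% fell. Gapdh, the most abundant of the list, fell from 7967 ± 119 to 1361 ± 51.0 CPM. Among genes averaging 5 CPM or more, Ldhb fell most, from 725 ± 15.7 to 37.1 ± 0.266 CPM. Its paralog Ldha rose from 645 ± 15.7 to 1377 ± 58.9 CPM (edgeR adjusted p = 3.04e-16). Eno2 rose most, from 4.75 ± 0.0369 to 23.8 ± 0.721 CPM. Its far more abundant paralog Eno1 fell from 1603 ± 37.8 to 1333 ± 34.3 CPM. Tpi1, triose phosphate isomerase, rose from 359 ± 6.96 to 1043 ± 36.5 CPM, and Aldoc, the brain-type aldolase, fell from 47.3 ± 1.77 to 6.93 ± 0.802 CPM. Aldoa, the most abundant aldolase of the list, fell from 2057 ± 26.5 to 1173 ± 49.1 CPM. Ldha, Eno1 and Aldoa were named after their values were seen.

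Of 8 genes that oppose or reverse these steps, 6 were tested, of which 3 rose and 3 fell. Their log2 fold changes had a median of -1.60, also with Fbp1 at its bound, but no gene lay near that value. This median falls in the gap between Pck2, at -3.68, and Pcx, at 0.47. Of the falling genes, Fbp1 and Fbp2 were low, Fbp2 at 1.85 CPM in ES and 0.0955 CPM in XEN cells. Over all genes tested, 42.0% rose and 46.7% fell, with a median of -0.07. Pck2, the mitochondrial phosphoenolpyruvate carboxykinase and the most abundant of them, fell from 89.3 ± 1.82 to 7.01 ± 3.65 CPM, a log2 fold change of -3.68 ± 0.50 (edgeR adjusted p = 0.000282). G6pc3, a glucose 6-phosphatase that undoes the hexokinase reaction, rose from 13.7 ± 0.605 to 58.3 ± 0.845 CPM (edgeR adjusted p = 1.28e-18). Slc37a4, which carries glucose 6-phosphate into the endoplasmic reticulum, rose from 6.42 ± 0.472 to 20.2 ± 0.435 CPM (edgeR adjusted p = 1.21e-13). Fbp1, the bisphosphatase that opposes phosphofructokinase, had 0 counts in each XEN library and 1.64 ± 0.365 CPM in ES cells, at least 34.3-fold lower in XEN cells.

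Of 17 genes through which sugar leaves upper glycolysis, 15 were tested, of which 9 rose and 5 fell. Under upper-quartile scaling these were 9 and 6. The median log2 fold change was 0.43, against -0.07 over all genes tested, of which 42.0% rose and 46.7% fell. Sord, sorbitol dehydrogenase, rose from 18.6 ± 0.520 to 206 ± 5.68 CPM and Gyg, glycogenin, from 9.89 ± 0.879 to 87.0 ± 3.99 CPM. Gfpt2, an entry enzyme of the hexosamine pathway, fell from 85.0 ± 2.89 to 8.05 ± 0.835 CPM. Gfpt1, its paralog at the same step, rose from 57.1 ± 2.37 to 382 ± 31.0 CPM (edgeR adjusted p = 1.45e-16) and was named after its value was seen. Pgd of the pentose phosphate pathway fell from 306 ± 5.03 to 161 ± 7.43 CPM. Tkt, transketolase, was the most abundant of the list, at 506 ± 13.8 and 484 ± 19.6 CPM (edgeR adjusted p = 0.129).

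Of 23 regulators of glucose uptake and glycolytic genes, 15 rose and 6 fell, or 15 and 7 under upper-quartile scaling. The median log2 fold change was 0.60, against -0.07 over all genes tested, of which 42.0% rose and 46.7% fell. Epas1, which encodes the oxygen-regulated factor HIF-2 alpha, rose from 29.8 ± 1.14 to 1085 ± 27.7 CPM (edgeR adjusted p = 1.88e-26). Myc rose from 6.62 ± 0.669 to 65.9 ± 3.87 CPM (edgeR adjusted p = 2.90e-20). Txnip, whose product restrains glucose uptake, fell from 193 ± 5.42 to 54.1 ± 2.93 CPM (edgeR adjusted p = 2.68e-19). Trp53, the p53 gene, fell from 470.5 ± 6.62 to 128 ± 1.04 CPM.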

How the data were processed

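One gene table per library, 3 from ES and 3 from XEN cells, was read. The submitters' processing notes name mm9, Bowtie2, RSEM and DESeq2, without versions or roles. The authors deposited expected counts and FPKM per gene. FPKM scales each gene by transcript length and by library total, with no composition factor. A gene absent from a table, where the lowest listed FPKM is 0.01, was taken as 0 counts. Whether counting used strand is not given in the sources used here. In RefSeq (GRCm38.p6) Slc2a1, Slc2a3, Hk1, Pfkm, Pfkp, Pfkfb2, Pfkfb3 and Hkdc1 overlap another annotated gene, and reads of overlapping genes may not be told apart.

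Expected counts were rounded, filtered by filterByExpr (13581 genes kept) and scaled by TMM (factors 0.951 to 1.05). XEN was compared with ES by the edgeR 4.0.16 quasi-likelihood test with robust dispersion (R 4.3.3), group as the only term, Benjamini-Hochberg adjusted over all genes at 0.05; glmTreat tested against 2-fold. Rows with the summed counts of a family were added to the same fit. SE were computed from log2 CPM with a prior count of 2. Shares were tested by exact permutation. The pipeline was tested on simulated data in which few genes changed. Most genes were called in the real data, so that scaling under such broad change was not tested. All libraries of a group differed beyond sampling noise (chi-square over degrees of freedom at least 2.44).

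Other settings were scaling by RLE, by upper quartile or by total alone, all genes kept, only genes averaging 1 CPM or more, the letter as a replicate block, each library left out, DESeq2 1.42.0, limma 3.58.1 (voom, and trend on log2 FPKM with pseudocounts 1 and 0.1), count shares and wider families; the summed counts of wider families were chosen after seeing the data. Named genes were the 10 members, their relatives, of each list up to 2 called genes with the largest change in each direction (averaging 5 CPM or more) plus its most abundant gene, and the nearest genes in pattern; a part of them is printed. The neighbours of Hk1 and Hkdc1 were chosen after their values were seen. One gene of the wider families is not reported here and was left out of their sums. Members and lists were chosen with earlier results of these data known.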

Additional observations from a re-analysis of the deposited data

How the results depend on the processing

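Under every alternative run, all 10 genes kept the direction of their fold change, and 8 or 9 of them were called. Calls of Pfkfb2, Pfkfb3 and Pfkfb4 changed as given above. The summed PFKFB counts lost their call on FPKM in limma, at 0.12 with a pseudocount of 1 and 0.13 with 0.1. Upper-quartile scaling moved the log2 fold change of all genes by a median of -0.15, no composition factor by -0.13 and FPKM by -0.12 and -0.13, so small changes are relative to the scaling. The share of Hk2 turned from 31.9 to -2.84 percentage points with Hkdc1 counted. The share of Pfkfb3, -0.18 points, turned to 3.32 with Pfkfb1 counted, and ran from -1.67 to 0.921 with 1 library left out. With the replicate letter as a replicate block, 12001 genes were called, against 12044, and all calls of members were as without it. Libraries with the same letter deviated together only weakly (correlations across genes of 0.0327, 0.00761 and 0.0199). Each library still correlated best with its own letter. Slc2a3, Hk2 and Pfkfb3 fell in FPKM from A to B to C in both groups, which no other member did. With the block, the edgeR adjusted p of Pfkfb3 was 0.00036, against 0.0079. That of the PFKFB sum was 2.95e-07, against 0.00063. For Pfkfb4 and Pfkm it was higher, at 0.18 against 0.12 for Pfkfb4. The labels do not say whether the letters pair libraries. The limma-voom count was also 12044, but 12006 of the genes were shared. Counts of 10 to 11 per library limit the precision of Pfkp in XEN cells.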
